A study of Homo sapiens with 59 samples.

Results

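Messenger RNA levels of 10 genes of the unfolded protein response (UPR) and of protein degradation at the endoplasmic reticulum (ER) were followed in Jurkat cells, a human T cell leukaemia line, under restriction of 1 essential amino acid at a time. The genes were chosen by name, with earlier results of these data known. XBP1, ERN1, ATF6 and CREB3L2 were taken as sensors and transcription factors, HERPUD1, SEL1L, SYVN1 and EDEM1 as degradation machinery, and DNAJB9 and DNAJC3 as ER co-chaperones. They are 10 of the 34622 gene rows found in the 7 deposited tables, and all 10 passed the filter on low values (a mean normalised count of at least 10) in every table, as did 15513 genes in all. The study collected 59 libraries of bulk RNA at day 3 in 12 groups. In 7 groups of 5 libraries the cells were labelled as given 25% of histidine, methionine, phenylalanine, tryptophan, isoleucine, leucine or valine. The histidine, methionine, phenylalanine and tryptophan groups each had a control group of 5 libraries, and the isoleucine, leucine and valine groups shared 1 branched-chain amino acid (BCAA) control group of 4 libraries, numbered 1, 3, 4 and 5. The labels name no drug or genotype for any group, and they give neither the level that 25% refers to nor the composition of the control media. The labels do not state whether replicate libraries came from separate cultures; p-values therefore reflect only library-to-library spread, possibly technical.

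Unfolded proteins in the ER lumen are sensed by 3 membrane proteins. IRE1, encoded by ERN1, splices the XBP1 mRNA into the form that encodes an active transcription factor, ATF6 is cut in the Golgi to release its transcription factor domain, and PERK phosphorylates a translation initiation factor, a step it shares with GCN2, the kinase that senses uncharged tRNA when an amino acid is scarce. The transcription factors raise chaperones and the genes of ER-associated degradation, in which a misfolded glycoprotein is recognised, passed through a membrane complex built on the ubiquitin ligase SYVN1 and its partner SEL1L, and degraded by the proteasome. The deposited values are per gene, so they show neither the splicing of XBP1 nor the cutting of ATF6, and they do not measure protein.

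Library totals ran from 14900000 to 20500000 normalised counts, and the reads behind them, estimated from the step between low values, from 11900000 to 35700000. The highest estimates, of phenylalanine restricted 2 and BCAA control 1, are unsure. Only 43.1% and 40% to 51.3% of their low values were whole multiples of that step. All 12 T cell markers examined were present in every table, and the summed myeloid markers reached at most 34.9 in any library. Phenylalanine restricted 2, phenylalanine control 1 and BCAA control 1 held 9.99%, 12.8% and 12.7% to 12.8% of their counts in ribosomal protein transcripts, above the 3.06% to 8.66% of all other libraries. Valine restricted 2, at 7.96%, was high only against its own group (5.33% to 6.7%), and histidine control 5, at 8.54% against 6.54% to 6.77%, also stood above its group. Below, the libraries rich in ribosomal protein transcripts are phenylalanine restricted 2 and control 1, valine restricted 2 and BCAA control 1, named so relative to their groups. Histidine control 3 and phenylalanine control 1 carried summed fibroblast and epithelial markers of 7510.4 and 3202, against 282 to 1347 in the other libraries, and COL1A2, a collagen gene of fibroblasts, of 1736 and 564 against 0 to 207. Values without them are given beside the member results and pathway counts that changed most; in bulk RNA, a change in the make-up of the cells and a change in RNA per cell cannot be told apart.

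Of the 10 genes, 6 fell under phenylalanine, 7 under leucine and 8 under valine restriction, and 0 rose in these. More members rose than fell under histidine, methionine and tryptophan restriction, and 0 were called under isoleucine restriction. As the genes were chosen with earlier results of these data known, the shares over all genes given beside the counts are a description and not a test. Fold changes are restricted minus control after log2(normalised count + 1), where the added 1 makes changes of low genes look smaller, and a gene is called where limma's adjusted p over all genes of its table is below 0.05. Under histidine restriction 3 members were called higher and 1 lower, beside 15.6% higher and 12.3% lower of all 17740 genes tested. Under methionine restriction 6 were higher and 0 lower, beside 27.8% and 25.4% of 16889 genes. Under tryptophan restriction 6 were higher and 2 lower, beside 23.6% and 27.7% of 16630 genes.

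Phenylalanine restriction called 0 members higher and 6 lower, where 4.11% of 17021 genes were called higher and 6.09% lower. Leucine restriction called 0 higher and 7 lower, where 3.41% of 16488 genes were higher and 4.33% lower. Valine restriction called 0 higher and 8 lower, where 5.13% of 16771 genes were higher and 7.36% lower. The median log2 fold change of the 10 members was -0.74, -1.12 and -1.12 in these 3 comparisons, beside 0.034, -0.003 and 0.013 over all genes tested. The corresponding member medians were 0.11 for histidine, 0.24 for methionine and 0.57 for tryptophan. For isoleucine, limma called 0 members and 0% of 16623 genes either higher or lower; at an unadjusted p below 0.05 it had 872 genes and 1 member, and the smallest adjusted p of a member was 0.797. The isoleucine, leucine and valine comparisons share the BCAA control libraries, so their values are not independent of each other.

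**Figure D1:**
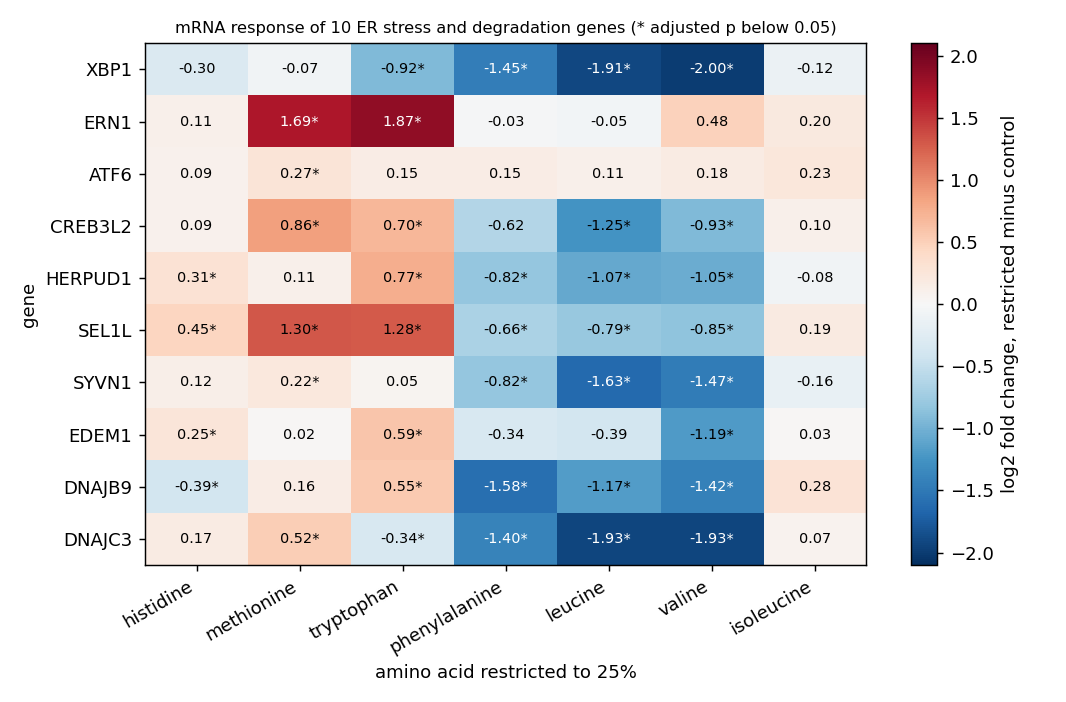
Log2 fold change (restricted minus control) of each gene (rows) under each restriction (columns), as colour and number, with a star where limma's adjusted p is below 0.05. XBP1 ranges from -2.0 (valine) to -0.07 (methionine), and ERN1 reaches 1.87 (tryptophan).

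XBP1 encodes the transcription factor made after IRE1 splicing, which drives chaperone and degradation genes. In the leucine table it stood at 617, 674, 619.5, 566 and 596 normalised counts in the restricted libraries and at 2737.5, 2035, 2278 and 2215 in the BCAA controls, a log2 fold change of -1.91 (SE 0.11, limma adjusted p = 4.18e-07), 3.75-fold lower. In the valine table the restricted libraries held 673, 590.4, 600.4, 573 and 631 against 2951, 2144, 2419 and 2356 in the same controls, a change of -2.0 (SE 0.12, adjusted p = 9.47e-07). Every restricted library lay below every control in both tables.

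Phenylalanine restriction gave XBP1 counts of 744, 948, 773, 762 and 793 against 2754, 2051, 1963, 2134 and 2135.5, a log2 fold change of -1.45 (SE 0.11, limma adjusted p = 1.08e-05). Tryptophan restriction gave 587, 680.4, 700.2, 629 and 670.4 against 1289.5, 1239, 1130.5, 1292 and 1240.1, a change of -0.92 (SE 0.07, adjusted p = 7.55e-08). The groups did not overlap in either table, and without phenylalanine restricted 2 and control 1 the phenylalanine value was -1.43 (adjusted p = 1.19e-08). Under histidine restriction the counts were 1088, 1076, 1016, 1130.5 and 955 against 1061.5, 1184, 1797, 1279 and 1245, where the 1797 belongs to histidine control 3; the change of -0.30 (SE 0.12) had an adjusted p of 0.071, and -0.18 with an adjusted p of 0.117 without that library. It was called without histidine control 1 (-0.37, adjusted p = 0.0305). Methionine restriction left a difference of -0.07 (95% interval -0.28 to 0.13, adjusted p = 0.531).

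The promoter window of XBP1, on chromosome 22, is shown because it holds the ER stress response element (ERSE), the site known to bind ATF6 and XBP1 with the factor NF-Y. ERSE is CCAAT, any 9 bases, then CCACG. On both strands of the 250 bases before each gene's start, it occurred in XBP1, 52 to 34 bases before the start, and in 0.074% of 35116 RefSeq windows of that length. The related element ERSE-II, ATTGG, any 1 base, then CCACG, occurred in HERPUD1 and in 0.0513% of windows. HERPUD1 also held TTGC directly followed by ATCA, part of the C/EBP-ATF response element bound by ATF4, 176 to 169 bases before its start, as did 0.772% of windows. The UPR element searched, TGACG directly followed by TGG, was in 0 of the 10 members and 0.612% of windows, and the cyclic AMP response element, TGACG directly followed by TCA, was in CREB3L2 and 1.65% of windows. The pieces CCAAT and CCACG, which overlap these elements, were each in 8 of 10 members, beside 32% and 33.5% of windows, and both were in 7 of 10, beside 9.96%. The windows were not limited to genes that passed the filter on low values, as all 10 members did, so the 2 sets are unlike. A match describes these letters in this window and is not a measured site. No exact match to either form of the ERSE was found in any member other than XBP1 and HERPUD1. XBP1 and HERPUD1, and also SYVN1, DNAJB9 and DNAJC3, which lack a match, fell under phenylalanine, leucine and valine restriction. A part of these elements in the responses was not tested. Below, the windows are from RefSeq on GRCh38.p14, read 5′ to 3′ on the gene's strand. Capitals mark the ERSE for XBP1 (chr22:28800570-28800819, minus strand), and the C/EBP-ATF part and the ERSE-II for HERPUD1 (chr16:56931892-56932141, plus strand). Capitals mark CCAAT or CCACG on either strand for SEL1L (chr14:81533854-81534103, minus strand) and ERN1 (chr17:64130145-64130394, minus strand), the members with the largest rises under methionine and tryptophan restriction.
XBP1: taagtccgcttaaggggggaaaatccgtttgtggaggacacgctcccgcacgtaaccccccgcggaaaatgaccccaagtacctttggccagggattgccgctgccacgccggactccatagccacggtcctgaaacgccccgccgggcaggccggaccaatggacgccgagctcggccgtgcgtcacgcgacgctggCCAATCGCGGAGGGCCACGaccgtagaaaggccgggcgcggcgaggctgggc
HERPUD1: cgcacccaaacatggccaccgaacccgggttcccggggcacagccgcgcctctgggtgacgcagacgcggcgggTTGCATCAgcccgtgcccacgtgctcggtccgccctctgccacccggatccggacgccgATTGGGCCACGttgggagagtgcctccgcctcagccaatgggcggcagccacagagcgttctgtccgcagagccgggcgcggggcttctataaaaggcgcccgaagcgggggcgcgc
SEL1L: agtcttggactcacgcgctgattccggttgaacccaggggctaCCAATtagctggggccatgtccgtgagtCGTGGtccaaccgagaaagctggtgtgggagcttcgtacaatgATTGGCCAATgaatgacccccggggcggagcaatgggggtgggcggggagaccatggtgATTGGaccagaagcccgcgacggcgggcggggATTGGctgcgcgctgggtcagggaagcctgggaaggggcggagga
ERN1: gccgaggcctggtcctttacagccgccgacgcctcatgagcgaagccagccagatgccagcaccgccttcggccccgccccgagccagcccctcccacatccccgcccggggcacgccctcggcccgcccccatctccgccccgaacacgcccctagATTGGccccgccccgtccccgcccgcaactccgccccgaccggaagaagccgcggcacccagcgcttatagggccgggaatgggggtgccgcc

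ERN1 encodes IRE1, the kinase and nuclease that splices XBP1. Under methionine restriction it stood at 2777, 3022, 3343.5, 2510.3 and 3244 normalised counts against 1093.5, 1034, 977, 663 and 881.5 in the controls, a log2 fold change of 1.69 (SE 0.12, limma adjusted p = 8.34e-08), 3.23-fold higher. Under tryptophan restriction it stood at 1608, 1906.5, 1615, 1885.5 and 1620.0 against 450.0, 477, 428, 448 and 555, a change of 1.87 (SE 0.08, adjusted p = 6.38e-10), 3.66-fold higher. All restricted libraries lay above all controls in both tables, while XBP1 in the same libraries did not pass the test (methionine) or fell (tryptophan).

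In the other tables ERN1 was not called. The valine libraries held 2779, 1799, 3029.7, 3290.5 and 2974 against 1457, 2464, 1867 and 2144 in the BCAA controls, a log2 fold change of 0.48 (SE 0.19, limma adjusted p = 0.123), with valine restricted 2 the lowest of its group. Without that library the change was 0.63 (adjusted p = 0.0158), and without it and BCAA control 1 it was 0.49 (adjusted p = 0.00368). The differences for histidine, phenylalanine, leucine and isoleucine were 0.11, -0.03, -0.05 and 0.20, with 95% intervals of -0.10 to 0.32, -0.45 to 0.38, -0.35 to 0.24 and -0.10 to 0.50.

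ATF6 encodes the sensor that becomes a transcription factor when cut. Its differences ran from 0.09 to 0.27 over the 7 tables. It was called under methionine restriction, at 1731, 1699, 2322, 1913 and 1726 against 1484, 1615, 1666, 1332 and 1667 (log2 fold change 0.27, SE 0.10, limma adjusted p = 0.0294). These groups did not overlap, but the adjusted p was 0.054 to 0.0743 when methionine restricted 3 or 4 or control 1 or 4 was left out in turn. For tryptophan the difference was 0.15 (adjusted p = 0.258), and it was 0.39 (adjusted p = 0.0075) with all libraries scaled to equal totals and 0.25 (adjusted p = 0.0223) without tryptophan control 4. For valine it was 0.18 (adjusted p = 0.438) and 0.30 (adjusted p = 0.0495) without valine restricted 2 and BCAA control 1.

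CREB3L2 encodes a relative of ATF6, also released from the ER membrane by cutting, known for driving secretory pathway genes. Methionine restriction raised it from 857 ± 118 to 1550.0 ± 90.0 (SD, n = 5 and 5), a log2 fold change of 0.86 (limma adjusted p = 2.58e-06), and tryptophan restriction from 549 ± 67.3 to 888 ± 96.7, a change of 0.70 (adjusted p = 3.2e-05). Leucine restriction lowered it from 1853 ± 377 (n = 4) to 767 ± 64.9 (n = 5), a change of -1.25 (adjusted p = 0.000329), and valine restriction to 1024 ± 256 from 1922 ± 377, a change of -0.93 (adjusted p = 0.0144). The groups did not overlap in these 4 tables. The valine call was lost without BCAA control 5 (-0.86, adjusted p = 0.053). Phenylalanine restriction gave 1286, 781, 1535.5, 1439.7 and 1499.8 against 1364, 2115, 2301, 2108 and 2027, a change of -0.62 with an adjusted p of 0.0664. The lowest restricted and the lowest control library were the 2 rich in ribosomal protein transcripts, and without both the change was -0.57 (adjusted p = 0.000101).

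**Figure D2:**
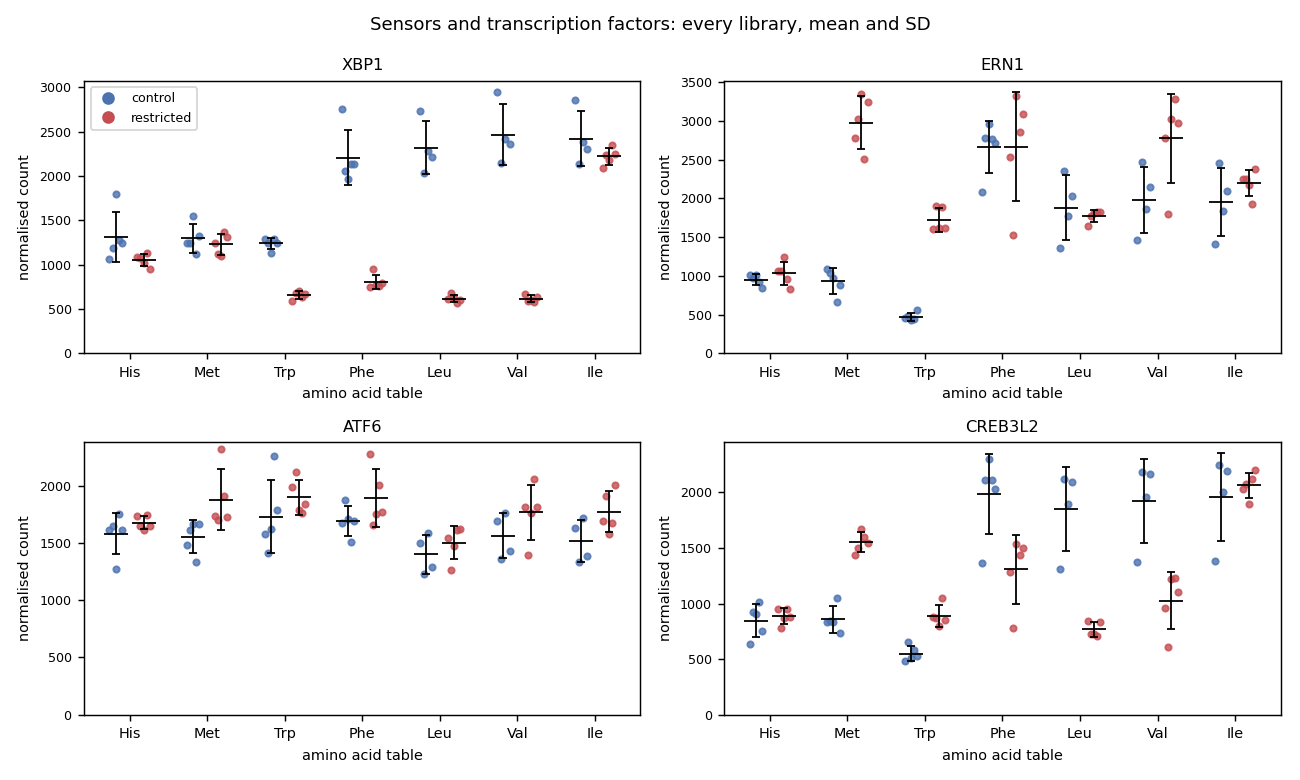
Normalised count (linear axis from 0) of XBP1, ERN1, ATF6 and CREB3L2 in every library of each amino acid table, controls blue and restricted red, with the mean and SD as black bars. The BCAA controls recur in the Leu, Val and Ile columns, each table scaled on its own. ERN1 restricted libraries in the Met and Trp columns lie above all their controls, and XBP1 restricted libraries in the Trp, Phe, Leu and Val columns lie below all of theirs.

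HERPUD1 is a membrane protein that assembles with SYVN1 and is among the mRNAs known to rise early in ER stress. In the tryptophan table it stood at 3236, 3659.6, 3821, 3331 and 3784 against 2479, 1909, 2112, 2183 and 1803, a log2 fold change of 0.77 (SE 0.08, limma adjusted p = 2.92e-06). In the histidine table it stood at 3018, 2864, 2582, 2850.5 and 2857.5 against 1911, 2169.6, 2415, 2424 and 2546, a change of 0.31 (SE 0.08, adjusted p = 0.0111), and 0.33 (adjusted p = 0.0133) without histidine control 3. Both were rises with no overlap between the groups. The fall under leucine restriction was -1.07 (adjusted p = 6.52e-05), from 6444 ± 849 (n = 4) to 3041 ± 113 (n = 5). Under valine it was -1.05 (adjusted p = 0.000218), from 6814 ± 964 to 3287 ± 286.5, and under phenylalanine -0.82 (adjusted p = 0.0014), from 5600.0 ± 814 to 3168 ± 471. Under methionine the difference was 0.11 (adjusted p = 0.33), and 0.24 (adjusted p = 0.0236) at equal totals.

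SEL1L, the scaffold that joins SYVN1 to its substrates, was called in 6 of 7 comparisons, 3 higher and 3 lower. Methionine restriction gave 6039, 5914.5, 7061, 6526 and 7126 against 2399, 2726, 2989, 2639.6 and 2528, a log2 fold change of 1.3 (SE 0.08, limma adjusted p = 1.1e-08). Tryptophan restriction gave 4792, 5847, 5148, 5078 and 5036 against 2230.1, 2298, 1979, 2268 and 1902, a change of 1.28 (SE 0.07, adjusted p = 3.64e-09). These are 2.46-fold and 2.43-fold higher with no overlap, and under histidine restriction the rise was 0.45 (adjusted p = 0.00016), from 2634 ± 159.8 to 3593 ± 170.4.

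The fall of SEL1L under leucine restriction, from 7988 ± 1491 (n = 4) to 4566 ± 257 (n = 5), was -0.79 (limma adjusted p = 0.00386). Under valine it was -0.85 (adjusted p = 0.0295) and under phenylalanine -0.66 (adjusted p = 0.0211), again with no overlap. At equal totals these were -0.74 (adjusted p = 0.0756) and -0.54 (adjusted p = 0.0679), past the threshold in neither. Leaving out single libraries also ended the call: valine restricted 1 or 3 or BCAA control 3, 4 or 5 for valine (adjusted p 0.0503 to 0.0887), and phenylalanine control 2, 3 or 5 for phenylalanine (0.0547 to 0.0564). Without the libraries rich in ribosomal protein transcripts the changes were -0.77 for valine (adjusted p = 1.61e-05) and -0.60 for phenylalanine (adjusted p = 2.13e-05).

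SYVN1 is the ubiquitin ligase of the complex. Leucine restriction gave 652, 812, 684, 652.5 and 768 against 2491, 2201, 1829.8 and 2335 in the BCAA controls, a log2 fold change of -1.63 (SE 0.12, limma adjusted p = 5.5e-06). Valine restriction gave 764, 951, 828, 789.6 and 919.8 against 2686, 2319, 1943 and 2483.5, a change of -1.47 (SE 0.13, adjusted p = 2.02e-05), and phenylalanine restriction gave 1167, 1270.1, 1169, 1179 and 1154 against 1940.1, 2065, 2164.5, 2202 and 2098, a change of -0.82 (SE 0.08, adjusted p = 5.69e-05). No restricted library reached its controls in these 3 tables. In the other tables its differences were 0.22 under methionine (adjusted p = 0.0472, groups overlapping, with adjusted p from 0.0583 to 0.105 on leaving out any 1 of 7 libraries), 0.05 under tryptophan (adjusted p = 0.645, but 0.29 with an adjusted p of 0.00617 at equal totals) and 0.12 under histidine (adjusted p = 0.362). A difference between the responses of SEL1L and SYVN1 was not tested.

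EDEM1 helps pull misfolded glycoproteins out of the folding cycle. Tryptophan restriction raised it from 5261 ± 351 to 7927.5 ± 744 (log2 fold change 0.59, limma adjusted p = 7.6e-06), and histidine restriction from 7925 ± 579 to 9418.5 ± 390.0 (0.25, adjusted p = 0.0102). Valine restriction lowered it: the libraries held 6229, 2959.9, 6377, 7348 and 6109.7 against 9193, 13908.5, 14836 and 13557, a change of -1.19 (SE 0.24, adjusted p = 0.0075). The lowest library in each of those valine groups is the one rich in ribosomal protein transcripts, and without both the change was -1.12 (adjusted p = 2.65e-06). Under leucine the difference was -0.39 (adjusted p = 0.0932), and -0.55 (adjusted p = 0.000527) without BCAA control 1. Under phenylalanine it was -0.34 (adjusted p = 0.207), and -0.20 (adjusted p = 0.04) without restricted 2 and control 1. Under methionine it was 0.02 (95% interval -0.19 to 0.24).

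DNAJB9, known as ERdj4, is an ER partner of the chaperone BiP that also restrains IRE1. Phenylalanine restriction gave 276, 241, 197, 227 and 250.1 against 798, 771, 728, 539.5 and 742, a log2 fold change of -1.58 (SE 0.14, limma adjusted p = 2.48e-05). The falls under leucine, from 680.5 ± 82.8 (n = 4) to 301 ± 28.7 (n = 5), and valine, from 724.5 ± 87.6 to 274 ± 56.9, were -1.17 (adjusted p = 0.000168) and -1.42 (adjusted p = 0.000377). Tryptophan restriction raised it, at 246, 212, 224, 223 and 252 against 139.9, 160.5, 201, 152.5 and 143 (0.55, SE 0.12, adjusted p = 0.00146). In these 4 tables the groups did not overlap. Under histidine it was lower by a call (-0.39, adjusted p = 0.0252) whose groups overlap and which was lost on leaving out restricted 1, 2 or 5 or control 2 or 5, with adjusted p from 0.0523 to 0.0561.

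DNAJC3, known as P58IPK, is another BiP partner and an inhibitor of kinases of the eIF2 family. Leucine restriction gave 979.7, 895, 1046, 977 and 1133 against 2615, 3893, 4743 and 4481 in the BCAA controls, a log2 fold change of -1.93 (SE 0.16, limma adjusted p = 1.95e-05), 3.82-fold lower. Valine restriction gave 1241, 563, 1197, 1285 and 1305 against 2814, 4095, 5028 and 4757, a change of -1.93 (SE 0.25, adjusted p = 0.000421), and phenylalanine restriction gave 1297, 833, 1489, 1291.5 and 1498 against 2709, 3688, 4017, 3119.7 and 3155, a change of -1.40 (SE 0.16, adjusted p = 0.000273). All 3 falls were free of overlap. They were -2.12 for leucine without BCAA control 1, -1.87 for valine without restricted 2 and BCAA control 1, and -1.32 for phenylalanine without restricted 2 and control 1. Methionine restriction raised the gene (0.52, adjusted p = 0.00248) from 1127 ± 182.5 to 1619 ± 263. Under tryptophan it fell from 1421 ± 133.5 to 1119 ± 95.9 (-0.34, adjusted p = 0.00271), and at equal totals the difference was -0.10 (adjusted p = 0.295). The groups overlapped in both of these tables.

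**Figure D3:**
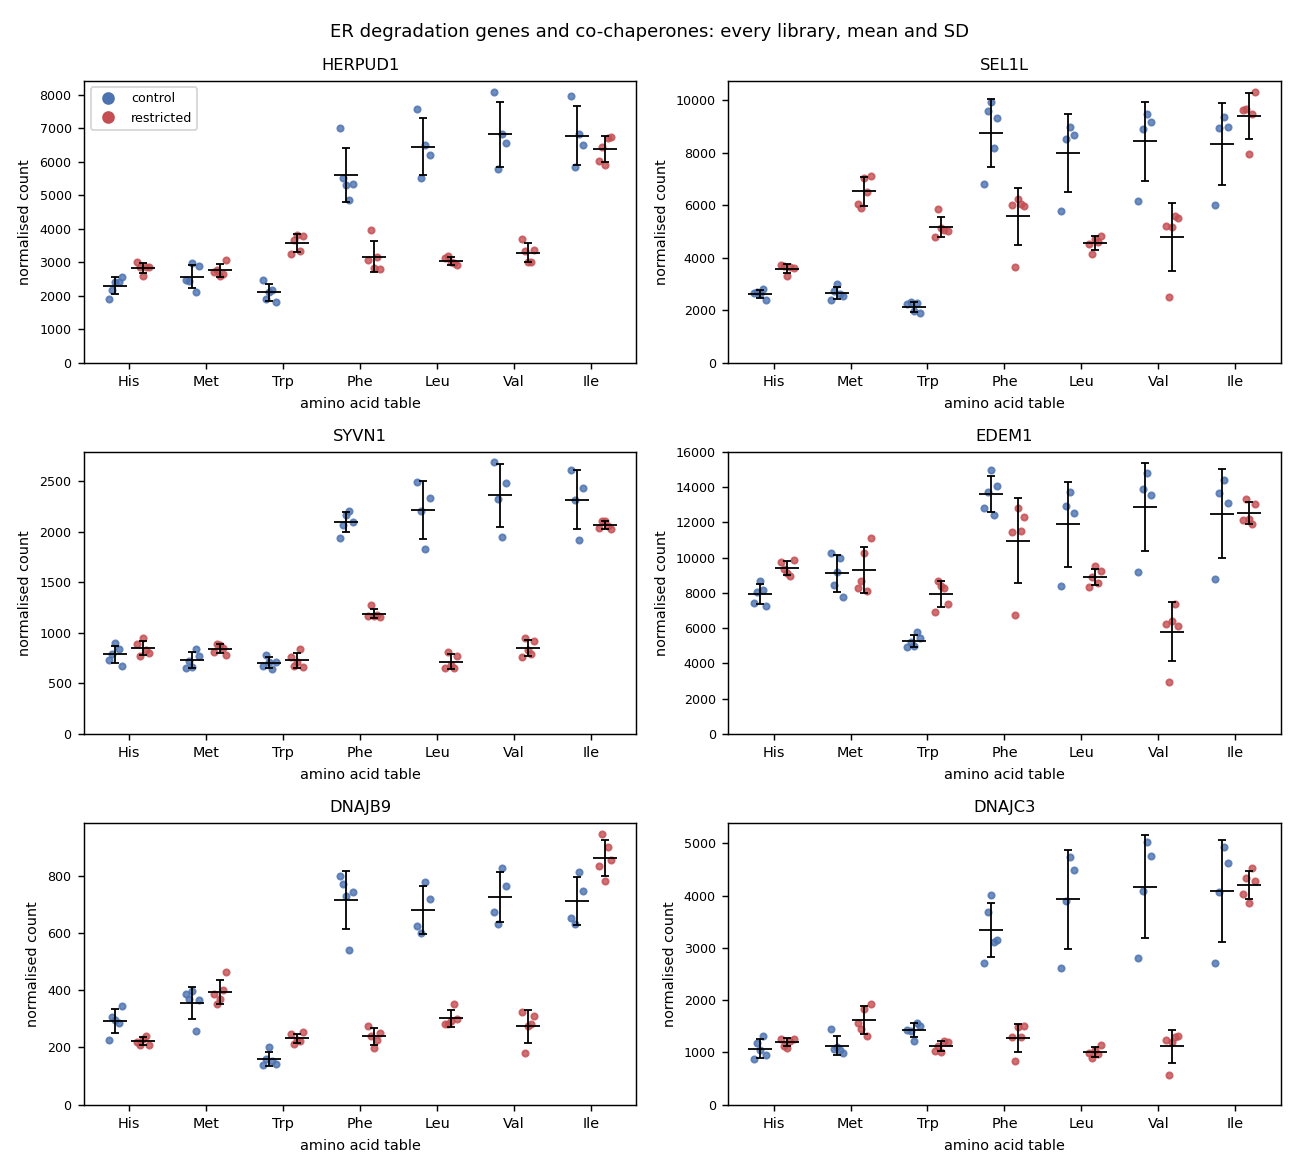
Normalised count (linear axis from 0) of HERPUD1, SEL1L, SYVN1, EDEM1, DNAJB9 and DNAJC3 in every library of each amino acid table, controls blue and restricted red, with mean and SD as black bars; the BCAA controls recur in the Leu, Val and Ile columns. Restricted SYVN1 and DNAJC3 libraries lie below every control in the Phe, Leu and Val columns, and restricted SEL1L libraries above every control in the His, Met and Trp columns.

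Whether responses differed was tested directly in 8 pairs of tables, as the difference of the 2 fold changes in 1 limma fit with p-values adjusted over all genes. Fold changes under phenylalanine and tryptophan restriction differed in 9 of 10 members, all lower for phenylalanine, beside 32.6% of all genes. ATF6 was the exception (difference 0.01, 95% interval -0.31 to 0.33). The test compares fold changes, and control levels differed between these tables. In counts per 1000000 of the library total, DNAJB9 means were 14.8 in both restricted groups. Its control means were 40.9 (phenylalanine) and 8.62 (tryptophan). Of the other members called, only HERPUD1 had a lower restricted mean under phenylalanine (195.9 against 228.4). Methionine and phenylalanine fold changes differed in 8, all higher for methionine, beside 29.4% of genes. Histidine and phenylalanine fold changes differed in 7, all higher for histidine, beside 9.66% of genes. Of these, EDEM1 (difference 0.59, adjusted p = 0.0366) lost its call with no filter on low values (adjusted p = 0.0502), at equal totals (0.108), with the replicate block (0.0645) and in 10 fits that left out 1 library (0.0507 to 0.0654). CREB3L2 (0.70, adjusted p = 0.0683) was called without phenylalanine restricted 2 and control 1 (0.66, adjusted p = 0.00361).

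Histidine and tryptophan fold changes differed in 8 members, beside 43.3% of genes. Those of XBP1 and DNAJC3 were higher for histidine and those of 6 members higher for tryptophan. At equal totals the difference of DNAJC3 went from 0.51 (adjusted p = 0.00405) to 0.31 (adjusted p = 0.0532). Histidine and methionine differed in 4, beside 34.4% of genes: the histidine response minus the methionine response was -1.58 for ERN1, -0.78 for CREB3L2, -0.85 for SEL1L and -0.55 for DNAJB9. Methionine and tryptophan differed in 4, beside 53.6% of genes, a share of members below that background. The fold change of XBP1 was higher for methionine by 0.85 (adjusted p = 2.02e-06) and that of DNAJC3 by 0.86 (adjusted p = 5.85e-05). For HERPUD1 and EDEM1 the methionine response minus the tryptophan response was -0.66 (adjusted p = 0.000157) and -0.57 (adjusted p = 0.000818). For ERN1 and SEL1L, which rose in both, it was -0.18 (95% interval -0.51 to 0.15) and 0.02 (-0.20 to 0.24).

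Phenylalanine and leucine differed in 1 member, SYVN1, whose fall was smaller under phenylalanine by 0.81 (limma adjusted p = 0.00142), beside 4.68% of genes. Phenylalanine and valine also differed in 1 member, SYVN1, by 0.65 (adjusted p = 0.0283), beside 0.691% of genes. That call was lost with no filter on low values and in 11 of the 19 fits that left out 1 library. For XBP1 the 2 differences were 0.46 (95% interval 0.14 to 0.77, adjusted p = 0.0918) and 0.55 (0.22 to 0.87, adjusted p = 0.112), and both were called without phenylalanine control 1, the library with the highest XBP1 of its group. Differences between the 3 branched-chain restrictions were not tested, as they share control libraries.

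Set on 1 scale, as counts per 1000000 of each library's total, the control groups of the separately normalised tables did not start from the same level. For XBP1 the 15 histidine, methionine and tryptophan control libraries lay between 61.9 and 107.5, and the 9 phenylalanine and BCAA control libraries between 115.1 and 152. For HERPUD1 these ranges were 99.2 to 174 and 272.5 to 415, for SEL1L 104.6 to 174.5 and 304 to 582, for SYVN1 34.6 to 53.7 and 107.1 to 144, for DNAJB9 7.43 to 24.1 and 30.3 to 49.7, and for DNAJC3 52.9 to 89.9 and 138 to 303. The ranges of ERN1 (23.4 to 68.1 and 71.5 to 173) and CREB3L2 (25.5 to 64.6 and 68.9 to 136.5) also stood apart, EDEM1 overlapped (261 to 639 and 441 to 879), and ATF6 overlapped throughout (75.5 to 121 and 78.9 to 107.3). The share of all genes whose control ranges stand apart in this way was not computed, so the separation is not shown to be particular to these members. This split of the controls was not among the comparisons planned in advance. The labels give no culture date or batch, so differences between tables cannot be told apart from how and when each set was grown. The phenylalanine, leucine, valine and isoleucine comparisons were all made against control groups in the higher ranges.

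The order of XBP1 group means was valine 37.6, leucine 38.5, tryptophan 41.8, phenylalanine 49.8 and histidine 64.1 among the restricted groups, then tryptophan control 66.9, methionine control 76.8, histidine control 77.7 and methionine restricted 79.5, and last phenylalanine control 126, isoleucine restricted 132 and BCAA control 139 (SD 2.22 to 17.0). Neighbours within 1 SD of each other were valine and leucine, histidine restricted and tryptophan control, the methionine and histidine controls with methionine restricted, and phenylalanine control and isoleucine restricted. Isoleucine restricted and BCAA control lay at the edge, with a gap of 6.89 in their shared table against the larger SD of 6.84. HERPUD1 means spanned 113 to 388 over the 5 control groups, a 3.42-fold range, and 172 to 228 over the 6 restricted groups other than isoleucine, a 1.33-fold range; with isoleucine restricted at 379 the range was 2.20-fold. For SYVN1 the control range was 3.52-fold, and the restricted range was 1.65-fold without isoleucine and 2.76-fold with it. For DNAJC3 these were 3.82-fold, 1.67-fold and 3.97-fold, and for XBP1 2.08-fold, 2.11-fold and 3.52-fold. With isoleucine, the restricted range of DNAJC3 and XBP1 was thus wider than the control range. The setting aside of isoleucine was chosen after these values were seen.

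**Figure D4:**
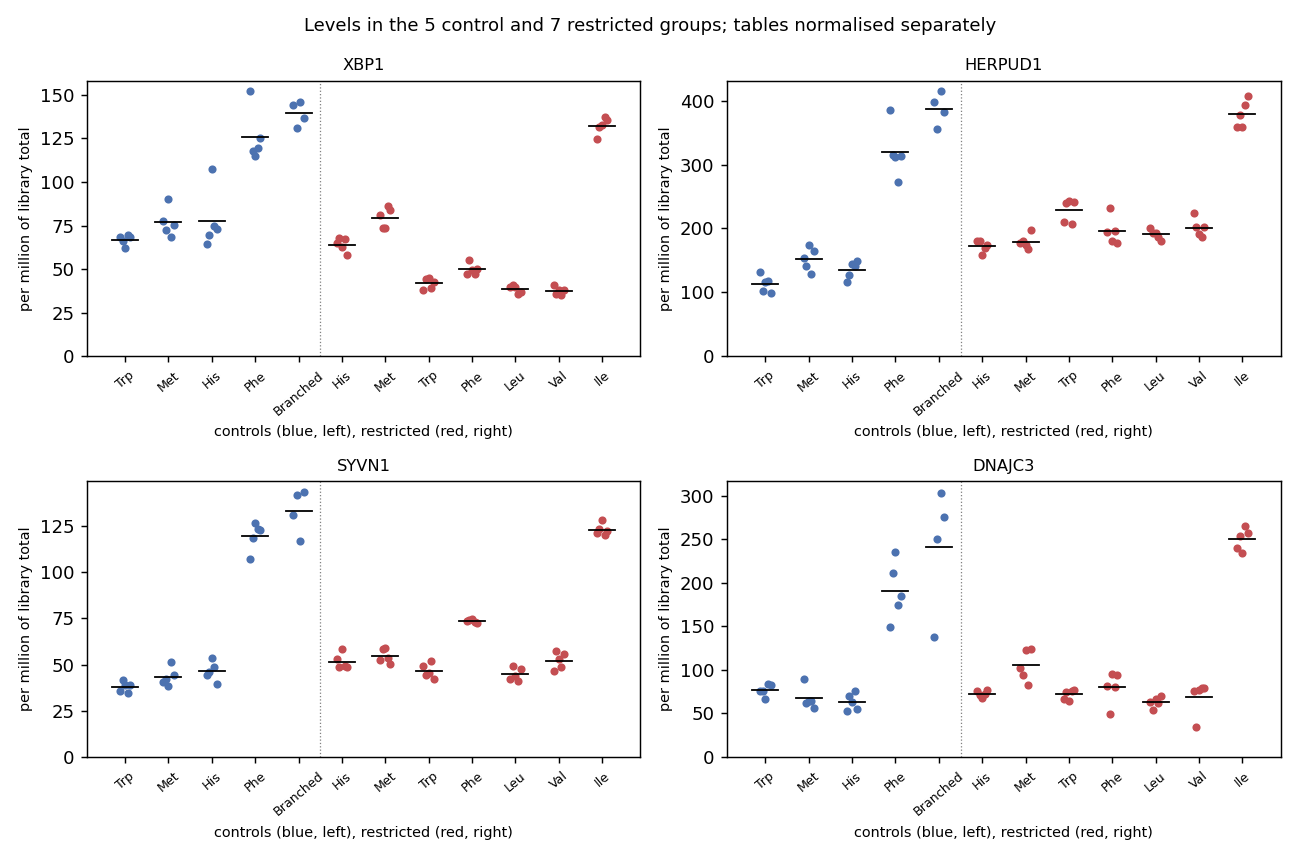
XBP1, HERPUD1, SYVN1 and DNAJC3 in counts per 1000000 of the library total (linear axis from 0) in the 5 control groups (blue, left) and 7 restricted groups (red, right), each point a library and each line a group mean; tables were normalised separately. HERPUD1 restricted groups other than Ile lie between means of 172 and 228, with Ile at 379, while control means run from 113 to 388.

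Of 22 chaperones and folding enzymes of the ER lumen, 17 fell under phenylalanine, 17 under leucine and 18 under valine restriction and 0 rose. Their median log2 fold changes were -1.40, -1.78 and -1.70, and the counts at equal totals were 17, 17 and 18. Over all genes tested 6.09%, 4.33% and 7.36% fell and 4.11%, 3.41% and 5.13% rose in these comparisons. Without the libraries rich in ribosomal protein transcripts 19 fell under phenylalanine, and 19 fell and 1 rose under valine. Calls over all genes also rose in that setting, from 1736 to 4435 for phenylalanine and from 2096 to 4210 for valine. HSPA5, which encodes BiP, the chaperone that holds the sensors inactive, fell from 50550.2 (mean of 4 controls) to 4296.5 under leucine (-3.56, limma adjusted p = 1.76e-10), by -2.79 under valine and by -2.54 under phenylalanine. HSP90B1, the ER HSP90, changed by -2.91, -2.69 and -2.81 in the same order, and PDIA4, a disulfide isomerase, by -2.69, -2.46 and -2.25. Under histidine 10 fell and 3 rose, and under methionine 9 fell and 4 rose (6 and 4 at equal totals). Over all genes tested 12.3% fell and 15.6% rose under histidine, and 25.4% and 27.8% under methionine. Under tryptophan 12 fell and 3 rose, beside 27.7% and 23.6% of all genes tested. At equal totals 8 fell and 8 rose, while the higher share of calls over all genes went from 45.9% to 71%. HSPA5 was lower under histidine (-1.21) and tryptophan (-1.0), where HERPUD1, SEL1L and EDEM1 were higher, and HSP90B1 was lower under methionine (-0.90).

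Of 26 other degradation genes, 10 rose and 4 fell under histidine and 10 rose and 3 fell under methionine. Over all genes tested 15.6% rose and 12.3% fell under histidine, and 27.8% and 25.4% under methionine. FAF2, which recruits the VCP segregase to the membrane, rose in both (0.67 and 0.96, limma adjusted p = 1.5e-05 and 4.01e-08). OS9, a lectin of the SEL1L complex, rose under methionine (0.58). Under tryptophan 6 of 25 tested rose and 10 fell, beside 23.6% and 27.7% of all genes tested, turning to 12 and 4 at equal totals. Calls over all genes moved the same way, from 8534 of 16630 genes, 45.9% of them higher, to 9687 of 16705, 71% of them higher. AUP1, a lipid droplet and degradation factor, was lower under both scalings (-1.19 and -0.95), as was VCP (-0.81 and -0.56). Under phenylalanine, leucine and valine 4, 7 and 7 fell and 0, 1 and 1 rose, with medians of -0.10, -0.17 and -0.21. Over all genes tested 6.09%, 4.33% and 7.36% fell and 4.11%, 3.41% and 5.13% rose there. At equal totals phenylalanine gave 1 fall and 2 rises and valine 3 and 2. Without the libraries rich in ribosomal protein transcripts, phenylalanine gave 10 falls and 1 rise and valine 9 and 4. Over all genes, calls in that setting also rose, from 1736 to 4435 for phenylalanine and from 2096 to 4210 for valine. DERL3, a derlin of the retrotranslocation step, was lower in all 3 but low throughout, at means of 1.86 to 2.65 restricted and 38.1 to 45.7 control.

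Among 23 translocon, signal recognition and signal peptidase genes, 12 rose and 4 fell under methionine, led by SRP68 (0.89) and SEC62 (0.79). Under histidine 5 rose and 6 fell, and at equal totals 7 rose and 5 fell. Over all genes tested 27.8% rose and 25.4% fell under methionine, and 15.6% and 12.3% under histidine. Under tryptophan 15 fell and 1 rose, beside 27.7% and 23.6% of all genes tested. At equal totals 9 fell and 5 rose, while the higher share of calls over all genes went from 45.9% to 71%. SEC62 was lower under tryptophan (-0.80, and -0.55 at equal totals). Under phenylalanine, leucine and valine 8, 10 and 8 fell and 1, 0 and 0 rose, with TRAM1, a translocon neighbour, at -0.99, -1.10 and -1.23. Over all genes tested 6.09%, 4.33% and 7.36% fell and 4.11%, 3.41% and 5.13% rose there. At equal totals phenylalanine gave 7 falls and 3 rises and valine 5 and 2. Without the libraries rich in ribosomal protein transcripts phenylalanine gave 16 and 5 and valine 10 and 2, while calls over all genes rose from 1736 to 4435 and from 2096 to 4210. Of 7 ATF6 and CREB3 relatives and their proteases, 4 rose and 1 fell under methionine and 3 rose under tryptophan, among them MBTPS1, the protease that first cuts ATF6 (0.50 and 0.27). CREB3L4 was lower under methionine (-1.49) and higher under tryptophan (0.66).

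Of 4 tested genes, IRE1 partners and its decay target, 3 fell under methionine and 4 under tryptophan (3 at equal totals), beside 25.4% and 27.7% of all genes. The 3 under methionine were TRAF2, BLOC1S1 and RTCB. ERN1 rose in the same tables, but a link to it was not tested. RTCB, the ligase that joins the XBP1 exons after IRE1 cuts them, changed by -0.69 under histidine, -0.39 under methionine and -0.76 under tryptophan (limma adjusted p = 5.15e-06, 0.00276 and 2.74e-07), and TRAF2, an adaptor that binds IRE1, by -0.67 under methionine and -1.04 under tryptophan. Of the 4, 0 were called under phenylalanine, leucine or valine; without the libraries rich in ribosomal protein transcripts BLOC1S1, a known decay target of IRE1, was called lower under phenylalanine (-0.45, adjusted p = 0.0164) and ZBTB8OS, a cofactor of RTCB, higher under valine (0.52, adjusted p = 0.0203). Of 11 genes of the PERK arm, which are also reached through GCN2, 5 rose under each of histidine, methionine and tryptophan restriction, and 2, 3 and 3 fell. Over all genes tested 15.6%, 27.8% and 23.6% rose and 12.3%, 25.4% and 27.7% fell in these comparisons. Under phenylalanine, leucine and valine 4.11%, 3.41% and 5.13% rose and 6.09%, 4.33% and 7.36% fell. TRIB3, a pseudokinase induced through ATF4, rose by 1.06, 2.21 and 2.61 under histidine, methionine and tryptophan. Under phenylalanine and valine 0 rose and 0 and 1 fell (4 and 3 fell and 1 rose in each without the libraries rich in ribosomal protein transcripts), and under leucine 3 fell: DDIT3, encoding CHOP (-1.53), PPP1R15A, encoding GADD34 (-0.70), and TRIB3 (-0.59). Where the libraries rich in ribosomal protein transcripts were left out, calls over all genes also rose, to 4435 for phenylalanine and 4210 for valine. These lists were described by counts and were not tested as sets.

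**Figure D5:**
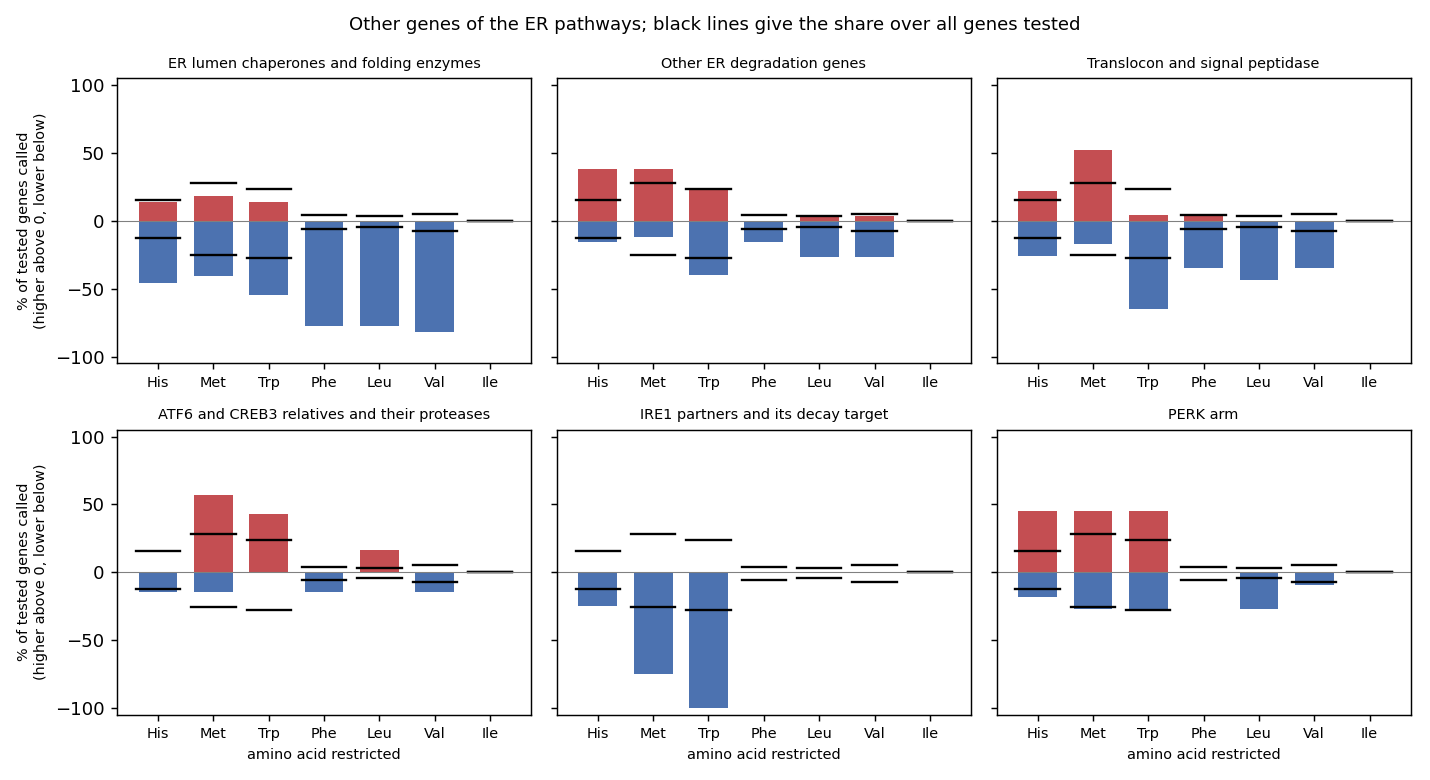
Share of the tested genes of 6 pathway lists called higher (red, above 0) or lower (blue, below 0) under each restriction, in percent, with black lines for the share over all genes tested in that comparison. Of 22 ER lumen chaperones, 17, 17 and 18 are lower under Phe, Leu and Val, and none is called under Ile.

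The genes whose pattern was most like each member were named by Pearson's r over the 35 restricted libraries, each taken relative to its table's controls, among 15512 other genes; the libraries of a table share a control mean and a scaling, so r is a description. XBP1 was nearest to SDF2L1 (r = 0.978), MANF (0.970) and DNAJB11 (0.957), all of the lumenal chaperone list. CREB3L2 and SEL1L were each other's nearest gene (0.964). DNAJC3 was nearest to MLEC (0.973), TRAM1 (0.970) and SLC39A14 (0.960), DNAJB9 to PDIA6 (0.931) and HSP90B1 (0.928), and SYVN1 to CDK2AP2 (0.961) and HYOU1 (0.948). HERPUD1 was nearest to CRELD2 (0.951), CTSG (0.943) and AARS1 (0.940), the last an aminoacyl-tRNA synthetase. ERN1 was nearest to PDE11A (0.968), SIRPG (0.904) and PIK3C2B (0.904), with SEL1L its nearest member (0.817, place 74), and EDEM1 to TMEM263 (0.947), MBNL2 (0.924) and KDM4A (0.919). ATF6 stood apart: its nearest gene was UGGT1 (0.697), and its nearest member, CREB3L2, came at place 1338 (0.315).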

How the data were processed

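Per the labels' protocols, total RNA from column kits went into strand-specific libraries. The authors deposited 7 tables of normalised counts, used here as a signal. The submitters' processing notes list GRCh38 as genome build and, as tools, DESeq2 1.44.0, FastQC 0.11.9 and kallisto 0.50.1, with settings not given in the sources used here. Low values came out as whole multiples of 1 step (within 0.1) in at most 81.6% of cases, so no count model was run. Each table was scaled on its own and tested on its own.

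Values were taken as log2(normalised count + 1), genes with a mean of at least 10 were kept, and limma 3.58.1 in R 4.3.3 (empirical Bayes with a trend, two-sided) was run over all of them with Benjamini-Hochberg adjustment, called below 0.05. Differences of responses came from a limma fit over 2 tables, in 8 pairs. The fits were tested on simulated data. Samples were grouped by their labels. All 10 members are named, and of each pathway list the 3 genes with the smallest adjusted p where genes are named in at least 1 table where they are given. Promoter windows and gene positions are from RefSeq. The members and lists were chosen with earlier results of these data known. Alternatives covered the pseudocount, the filter, 2 scalings, library weights, the replicate block and leaving out libraries; those on the pathway lists were chosen after seeing the data.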

Additional observations from a re-analysis of the deposited data

Results flagged for a closer look

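Within each group of 4 or 5 libraries the most extreme value of each member was set against the group's range by Dixon's test. Of 140 groups of values, which count the BCAA controls once in each of 3 tables, 17 had such a library, where chance flags about 1 in 20. In the phenylalanine table, restricted 2 was high for XBP1 (947.6, others 744 to 793) and SYVN1 (1270.1, others 1154 to 1179) and low for SEL1L (3656, others 5990.3 to 6232) and EDEM1 (6751, others 11455 to 12819.7). Control 1 of that table was high for XBP1 (2754, others 1963 to 2135.5) and low for ERN1 (2089, others 2713 to 2956), and control 4 was low for DNAJB9 (539.5, others 728 to 798).

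Valine restricted 2 was low for SEL1L (2516, others 5169.6 to 5609), EDEM1 (2959.9, others 6109.7 to 7348) and DNAJC3 (563, others 1197 to 1305). BCAA control 1 was low for SEL1L in the isoleucine (6025), leucine (5769.7) and valine (6182) tables, which hold the same library. These 4 libraries hold 12 of the 17 values, with BCAA control 1 counted once in each of its tables. Each was the highest of its group in ribosomal protein transcripts, as some library of every group must be. Histidine control 5, also well above its group (8.54%, others 6.54% to 6.77%), had no flagged value. The part of the ribosomal protein share in these values was not tested. The remaining values were SEL1L in histidine restricted 3 (3297, others 3622 to 3723), DNAJB9 in methionine control 4 (258.7, others 365 to 398) and in leucine restricted 4 (350.4, others 281 to 301), and DNAJC3 in methionine control 1 (1445, others 985 to 1103).

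The test of the difference of responses called 4 members for histidine against methionine, 7 for histidine against phenylalanine, 8 for histidine against tryptophan, 8 for methionine against phenylalanine, 4 for methionine against tryptophan, 9 for phenylalanine against tryptophan, and 1 each for phenylalanine against leucine and against valine.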

How the results depend on the processing

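Of 1250 recomputed member fold changes, 1181 kept their direction and their side of the threshold, 31 lost a call, 19 gained one and 19 changed sign, each of these uncalled under both settings (lowest adjusted p 0.414). The sign changes were XBP1 under methionine at equal totals (0.053), ERN1 under phenylalanine at equal totals (0.085), with library weights (0.049) and without restricted 2 and control 1 (0.069), and CREB3L2 (-0.036), EDEM1 (-0.079) and DNAJC3 (-0.064) under isoleucine with library weights. On leaving out single libraries the values ran from -0.126 to 0.153 for ERN1 under phenylalanine, -0.199 to 0.065 for ERN1 under leucine, -0.012 to 0.155 for CREB3L2 under histidine, -0.044 to 0.068 for EDEM1 under methionine, -0.002 to 0.088 for SYVN1 under tryptophan and, under isoleucine, -0.058 to 0.176 for CREB3L2, -0.134 to 0.103 for EDEM1 and -0.111 to 0.176 for DNAJC3. The number of members called in each of the 7 comparisons stayed within 1.5 times under every setting. The 1 member called between phenylalanine and leucine became 2 at equal totals, 4 with library weights and 3 without phenylalanine restricted 2 and control 1, and 1 to 2 on leaving out single libraries. The 1 between phenylalanine and valine became 0 with no filter, 2 at equal totals, 3 with library weights, 0 with the replicate block, 2 without phenylalanine restricted 2 and control 1, and 0 to 2 on leaving out single libraries. The cause was not tested.

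Deviations of same-numbered libraries from their group means correlated weakly (from -0.19 to 0.19, and from 0.04 to 0.19 in the valine table). Such correlations over all genes cannot decide whether the numbers pair the libraries, and the labels do not say. With the replicate block, SYVN1 under methionine (0.22, adjusted p = 0.076) and SEL1L under phenylalanine (-0.66, adjusted p = 0.0632) lost their call. ERN1 under valine gained one (0.63, adjusted p = 0.00955). That fit leaves out numbers without a partner, here valine restricted 2, and ERN1 was also called without that library alone (0.63, adjusted p = 0.0158). Over all genes, phenylalanine calls fell from 1736 to 803 and leucine calls from 1277 to 771, while valine calls rose from 2096 to 3067. Library weights moved the calls over all genes to 4868 for phenylalanine, 2699 for leucine and 4549 for valine (from 2096), and leaving out the libraries high in ribosomal protein transcripts to 4435 for phenylalanine and 4210 for valine. Calls between histidine and phenylalanine went from 1589 to 3740 with weights, 982 with the replicate block and 3178 without the 2 phenylalanine libraries, those between phenylalanine and leucine from 756 to 492 (no filter), 2622, 189 and 1192, and those between phenylalanine and valine from 113 to 63 (no filter), 190 (mean of at least 100), 248 (equal totals), 1467, 12 and 229 or 290. Isoleucine had 1 call with no filter. Equal totals moved the all-gene median (log2) by 0.127 (methionine), 0.119 (phenylalanine), 0.245 (tryptophan) and 0.114 (valine), and the share of calls that were higher from 52.2% to 62.6%, 40.3% to 67%, 45.9% to 71% and 41.1% to 63.7%. For the differences of responses that share went from 54.2% to 43.6% (histidine and methionine), 65.6% to 49.4% (histidine and phenylalanine), 59.4% to 37.9% (histidine and tryptophan), 56% to 42.7% (phenylalanine and tryptophan) and 43.7% to 67.6% (phenylalanine and leucine). Without raw counts, no counting interval was given.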
